A study of Homo sapiens with 4 samples.

Results

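The 6 members of the phosphatidylinositol 3-kinase-related kinase (PIKK) family and the 3 subunits of the chaperone complex that serves them were followed through reads across splice junctions of nascent RNA. The 9 genes were taken by name, and are 9 of 17157 genes with reads at annotated junctions. PIKKs are very large proteins built of helical repeats and a kinase domain that resembles a lipid kinase but phosphorylates serine and threonine. The family includes the kinases PRKDC, ATM and ATR, which signal DNA damage and replication stress, MTOR, which couples nutrients to growth, and SMG1, which phosphorylates UPF1 in nonsense-mediated mRNA decay. TRRAP has the same build without kinase activity and is a scaffold of histone acetyltransferase complexes. Newly made PIKK proteins are folded and stabilised by TELO2, TTI1 and TTI2, the TTT complex, working with HSP90 and the R2TP co-chaperone.

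The mutant cells gave 2 libraries of genotype SF3B1 K700E, and the controls 2 libraries of genotype WT, all of the line K562 at day 4. SF3B1 is the U2 snRNP subunit that binds near the branch point while the 3′ splice site is chosen, and K700E is its recurrent hotspot change in myeloid neoplasms. The treatment text common to all 4 samples states that doxycycline at 1 µg/ml induced the modified allele. It does not say for each genotype which cells carried such an allele or received the drug, or whether a line was 1 clone. Chromatin-bound RNA was isolated with α-amanitin, an inhibitor of RNA polymerase II, at 25 µM and was freed of polyadenylated RNA in 3 rounds and then of ribosomal RNA. The series title concerns how splicing-factor mutations affect polymerase elongation and replication stress. Separate cultures are not stated for the replicates. The p-values thus speak of the spread among the 4 libraries alone, which may be technical. In bulk RNA such as this, fewer cells with a transcript and less transcript per cell cannot be told apart.

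The SF3B1 K700E libraries held 4304213 and 5322414 uniquely mapped junction reads, and the WT libraries held 3582592 and 3687513. K562 is generally known as a line from an erythroleukemia, although the labels give epithelial as the cell type. All 15 erythroid markers had reads, summing to 3238 and 5022 CPM (junction reads scaled to the size of the library) in SF3B1 K700E and 3146 and 4053 CPM in WT. The epithelial markers CDH1, KRT5, ESRP1 and GRHL2 were at 0 in all 4 libraries, and the 5 others of that list had reads. The lymphoid list, with reads at 4 of 6 genes and CD79A and MS4A1 at 0, summed to 1769 and 1535 CPM in SF3B1 K700E and 914 and 1210 CPM in WT, nearly all of it PTPRC; its part in the results was not tested. SF3B1 itself had 845 and 702 CPM in SF3B1 K700E and 897 and 1016 CPM in WT (log2 change -0.31, SE 0.22, edgeR adjusted p 0.747). Junction counts hold no base calls, so these values do not check the allele.

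Exon sequences at the junctions described further on are shown because each lies at a splice site that the members used differently from their reference transcript. They come from GENCODE release 29 transcripts on GRCh38, are written 5′ to 3′ on the strand of the gene, and are coding. The first pair flanks intron 3 of TTI1 on the minus strand, at chr20:38006197-38006236 and chr20:38002737-38002776. The bases of the intron itself were not used here.
TTI1 last 40 bases of exon 3: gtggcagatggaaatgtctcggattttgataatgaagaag
TTI1 first 40 bases of exon 4: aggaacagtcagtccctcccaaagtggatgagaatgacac
In SMG1, on the minus strand, capitals mark the AG before an unannotated acceptor inside exon 60 (chr16:18815222-18815281) and the GT of an annotated donor inside exon 21 (chr16:18868523-18868642).
SMG1 first 60 bases of exon 60: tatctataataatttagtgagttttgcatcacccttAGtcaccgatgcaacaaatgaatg
SMG1 last 120 bases of exon 21: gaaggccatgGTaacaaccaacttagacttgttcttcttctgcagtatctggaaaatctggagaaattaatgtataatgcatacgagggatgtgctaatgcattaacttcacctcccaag
The next is a whole exon of TELO2, on the plus strand (chr16:1501420-1501499), that some reads skipped.
TELO2 exon 10: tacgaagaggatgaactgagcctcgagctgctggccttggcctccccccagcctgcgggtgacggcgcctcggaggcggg
In TRRAP, on the plus strand, annotated alternatives lengthen exon 58 at its end (chr7:98983460-98983492) and exon 64 at its start (chr7:98993538-98993591), or add an exon inside intron 31 (chr7:98945747-98945800). Capitals mark the GT and the AG that the shorter forms use.
TRRAP extension of exon 58: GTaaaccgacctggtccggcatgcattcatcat
TRRAP extension of exon 64: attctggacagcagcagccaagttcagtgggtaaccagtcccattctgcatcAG
TRRAP exon inside intron 31: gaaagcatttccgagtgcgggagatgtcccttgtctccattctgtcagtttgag

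No difference in spliced reads of the 9 genes passed the test. Of the 9 genes 0 passed the test over all genes in either direction, with edgeR's quasi-likelihood test and with DESeq2, and 0 had an unadjusted p under 0.05, which 10.1% of all genes tested had. Over all 10827 genes tested 0.933% were called in either direction at an adjusted p under 0.05. The log2 change was above 0 in 7 of 9 members, including all 6 of the family, and its median was 0.23, against 0.00 over all genes, of which 50.4% lay above 0. Without replicate 1 of SF3B1 K700E the change was -0.12 for ATR and -0.0052 for SMG1, so the shared direction of the family rested on that library. In 2 members, MTOR and ATM, both SF3B1 K700E libraries lay above both WT libraries, in 0 they lay below, and in 7 the groups overlapped. Over all genes tested 19.4% were higher in this sense and 20.1% lower.

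**Figure D1:**
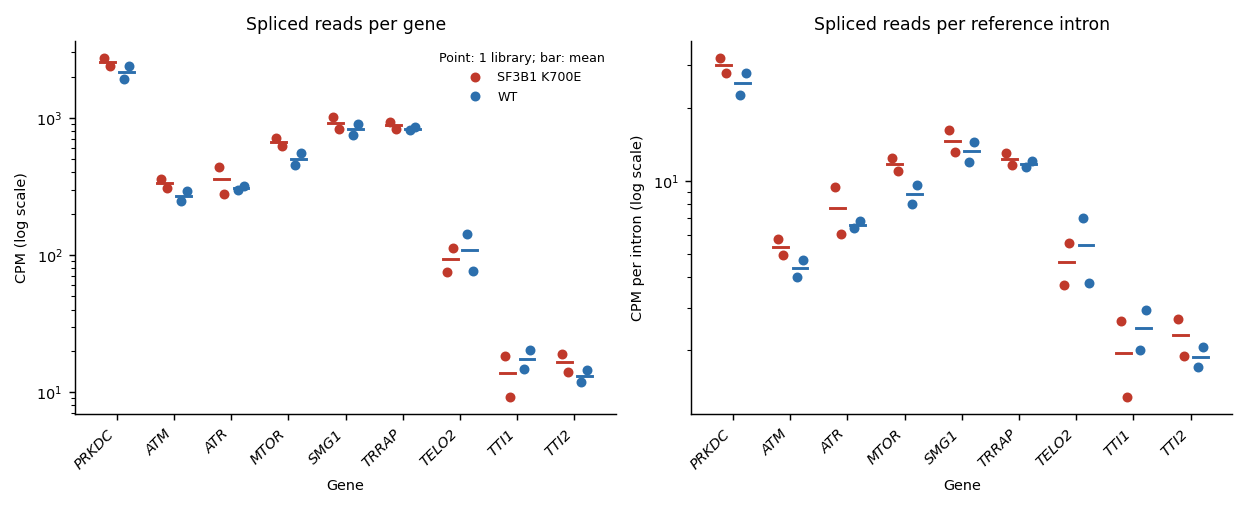
Spliced reads of the 9 genes per library, as CPM per gene (left) and CPM per intron of the reference transcript (right), on log axes, with SF3B1 K700E left of WT; points are libraries and bars are means. In both panels the groups are apart only for MTOR and ATM, and PRKDC stands highest and TTI1 and TTI2 lowest.

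Per intron, which sets aside how many introns a gene has, the order of levels was much the same in both genotypes. PRKDC had 32.3 and 27.9 CPM per intron in SF3B1 K700E and 22.6 and 28.0 CPM per intron in WT, above every other member in every library. SMG1, TRRAP and MTOR followed, with means of 14.7, 12.4 and 11.7 CPM per intron in SF3B1 K700E and 13.2, 11.7 and 8.82 CPM per intron in WT. In all 4 libraries SMG1 lay above TRRAP and TRRAP above MTOR, although their ranges over the libraries overlapped. ATR had 9.44 and 6.05 CPM per intron in SF3B1 K700E and 6.37 and 6.83 in WT. It lay under MTOR in all 4 libraries, again with overlapping ranges. ATM, with 5.78 and 4.94 CPM per intron in SF3B1 K700E and 4.00 and 4.70 in WT, lay under ATR in all 4 libraries and overlapped TELO2. TTI1, at 2.63 and 1.28 CPM per intron in SF3B1 K700E and 2.01 and 2.92 in WT, and TTI2, at 2.703 and 1.90 in SF3B1 K700E and 1.70 and 2.06 in WT, were the lowest and overlapped each other.

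PRKDC encodes the catalytic subunit of DNA-PK, which the Ku proteins bring to broken DNA ends for non-homologous end joining. The gene (ENSG00000253729.7, chromosome 8, 47773108 to 47960183, minus strand) had 2745 and 2372 CPM in SF3B1 K700E and 1925 and 2383 CPM in WT. One WT library reached the lower of the SF3B1 K700E libraries, so the groups overlapped. The log2 change was 0.25 with an SE of 0.22 (edgeR adjusted p 0.821). With 11020 and 11533 junction reads in SF3B1 K700E and 6376 and 7996 in WT it was the most deeply covered member.

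ATM, the kinase that the MRN complex activates at double-strand breaks, lies on the plus strand of chromosome 11 (ENSG00000149311.18, 108222484 to 108369102). It had 360 and 307 CPM in SF3B1 K700E and 248 and 293 CPM in WT. Both SF3B1 K700E libraries were above both WT libraries. The log2 change was 0.30 with an SE of 0.22 (edgeR adjusted p 0.751). ATR, which with ATRIP is recruited to single-stranded DNA at stalled forks, lies on the minus strand of chromosome 3 (ENSG00000175054.14, 142449235 to 142578826). It had 438 and 281 CPM in SF3B1 K700E and 296 and 317 CPM in WT. The SF3B1 K700E libraries were the highest and the lowest of the 4, and the log2 change was 0.23 with an SE of 0.25 (edgeR adjusted p 0.872).

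MTOR, the kinase of both mTORC1 and mTORC2, lies on the minus strand of chromosome 1 (ENSG00000198793.12, 11106535 to 11262507). It had 710 and 626 CPM in SF3B1 K700E and 457 and 550 CPM in WT. Both SF3B1 K700E libraries were again above both WT libraries. The log2 change was 0.41 with an SE of 0.22 and did not pass (unadjusted p 0.0919, edgeR adjusted p 0.616). SMG1 lies on the minus strand of chromosome 16 (ENSG00000157106.16, 18804853 to 18926454). It had 1014 and 823 CPM in SF3B1 K700E and 753 and 908 CPM in WT, values that overlapped, with a log2 change of 0.14 and an SE of 0.23 (edgeR adjusted p 0.928). TRRAP lies on the plus strand of chromosome 7 (ENSG00000196367.13, 98877933 to 99050831). It had 932 and 832 CPM in SF3B1 K700E and 812 and 859 CPM in WT. The 4 TRRAP values lay close together and overlapped, with a log2 change of 0.08 and an SE of 0.21 (edgeR adjusted p 0.970).

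No subunit of the TTT complex passed the test. TELO2, which binds PIKKs directly, lies on the plus strand of chromosome 16 (ENSG00000100726.14, 1493344 to 1510457) and had 74.9 and 112 CPM in SF3B1 K700E and 142 and 76.4 CPM in WT. High and low libraries occurred in both genotypes, with a log2 change of -0.22 and an SE of 0.32 (edgeR adjusted p 0.919); it was 0.04 without replicate 1 of SF3B1 K700E and 0.29 without replicate 1 of WT. TTI1, the subunit that joins TELO2 to TTI2, lies on the minus strand of chromosome 20 (ENSG00000101407.12, 37983007 to 38033468) and had 18.4 and 9.15 CPM in SF3B1 K700E and 14.7 and 20.4 CPM in WT. The lowest value was that of 1 SF3B1 K700E library, and the other lay between the WT values. The log2 change was -0.36 with an SE of 0.40 (edgeR adjusted p 0.873), and was 0.08 without replicate 2 of SF3B1 K700E. TTI2 on the minus strand of chromosome 8 (ENSG00000129696.12, 33473386 to 33513601) had 18.9 and 14.1 CPM in SF3B1 K700E and 11.9 and 14.4 CPM in WT, which overlapped, with a log2 change of 0.32 and an SE of 0.34 (edgeR adjusted p 0.866). These 2 genes rested on 44 to 73 and 39 to 75 annotated-junction reads per library, so a moderate change could not be seen at this depth.

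Partners of the family were described from a list of 43 genes that holds cofactors, chaperones and pathway neighbours. Of these 39 could be tested, and TADA2B, NHEJ1, DEPTOR and WDR92 had too few reads. Among the 39, 0 were called in either direction, 25 had a log2 change above 0 and 14 below, and the median was 0.08, against 0.00 over all genes. At an unadjusted p under 0.05 there were 2 of the 39, against 10.1% of all genes, and they are given as values only. RICTOR, the subunit that defines mTORC2, had 530 and 332 CPM in SF3B1 K700E and 638 and 822 CPM in WT, so both SF3B1 K700E values were below both WT values (log2 change -0.76, SE 0.27, edgeR adjusted p 0.313). RPTOR, its counterpart in mTORC1, had 354 and 332 CPM in SF3B1 K700E and 334 and 290 CPM in WT, which overlapped. HSP90AB1, the constitutive cytosolic HSP90 with which TTT works, had 1280 and 1499 CPM in SF3B1 K700E and 904 and 1002 CPM in WT, with both SF3B1 K700E values above (log2 change 0.54, SE 0.22, edgeR adjusted p 0.403). Of the R2TP ATPases, RUVBL1 had 72.7 and 95.7 CPM in SF3B1 K700E and 105 and 90.2 CPM in WT, and RUVBL2 had 139 and 157 CPM in SF3B1 K700E and 206 and 143 CPM in WT; both overlapped. The Ku subunits XRCC5 and XRCC6, partners of PRKDC, had log2 changes of 0.29 and 0.20 (edgeR adjusted p 0.749 and 0.871).

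Reads were next followed intron by intron along each reference transcript, 416 introns in all, each with reads and 414 of them with reads in every library. MTOR was the member with the largest share of introns that were higher in both SF3B1 K700E libraries than in both WT libraries, 32 of 57 or 56.1%. PRKDC had 34 of 85, ATM 23 of 62 and ATR 13 of 46. TRRAP had 15 of 70, SMG1 10 of 62, TELO2 2 of 20 and TTI2 2 of 7, whereas TTI1 had 0 of 7 and was lower at 3. Together 131 introns were higher and 25 lower. Over all annotated junctions with at least 10 reads 18.9% were higher and 17.1% lower. Introns of 1 gene share its transcripts, so these counts repeat the gene totals and are no independent evidence.

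**Figure D2:**
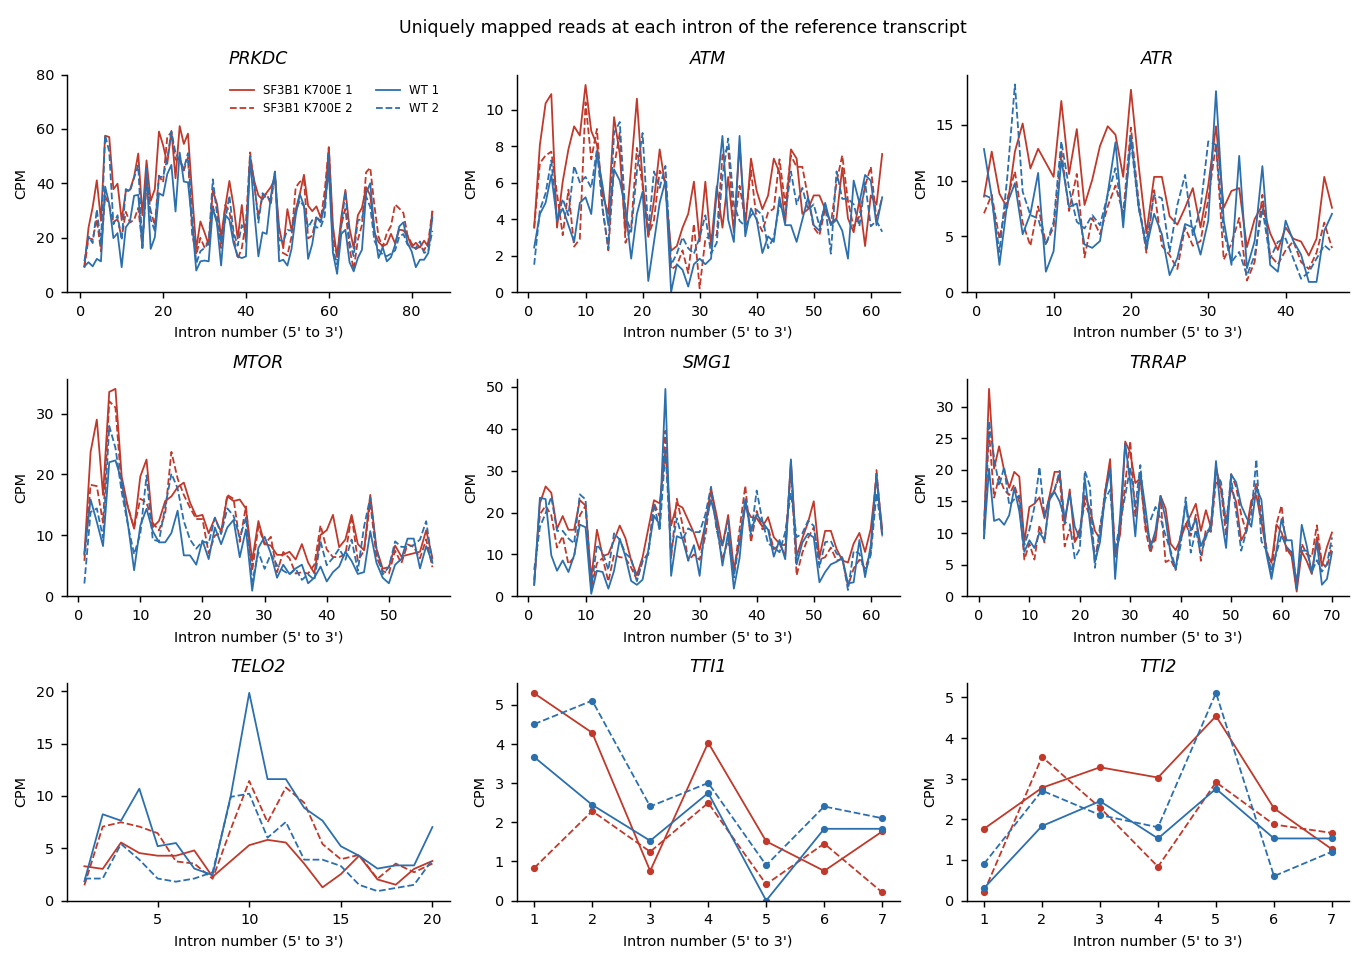
CPM of uniquely mapped reads at each intron of the reference transcript, 5′ to 3′, for the 9 genes; red lines are SF3B1 K700E and blue lines WT, replicate 1 solid and replicate 2 dashed. Many peaks of MTOR, PRKDC and SMG1 recur in all 4 libraries, and the SF3B1 K700E lines of MTOR run above the WT lines at 32 of 57 introns.

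Profiles along the introns were compared between libraries. Across introns, Pearson's r between any 2 libraries ran from 0.837 to 0.916 for MTOR (57 introns), from 0.791 to 0.929 for PRKDC (85), from 0.381 to 0.664 for ATM (62) and from 0.388 to 0.825 for TTI1 (7), as a description of introns that share their transcripts. MTOR was highest at intron 5, with means of 32.8 CPM in SF3B1 K700E and 25.0 CPM in WT. PRKDC was highest at intron 22, with 59.1 CPM in SF3B1 K700E and 52.8 CPM in WT, and TELO2 at intron 10, with 8.37 CPM in SF3B1 K700E and 15.04 CPM in WT. At this TELO2 intron the libraries had 5.30 and 11.4 CPM in SF3B1 K700E and 19.9 and 10.2 CPM in WT, which overlapped. At MTOR intron 3 the values were 29.01 and 18.1 CPM in SF3B1 K700E and 12.2 and 14.4 CPM in WT, with both SF3B1 K700E libraries above.

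Because the series concerns elongation, reads near the 3′ end of each gene were set against those near its 5′ end, after dividing it into 3 parts. With 3 parts of equal intron number, a choice made after seeing the data, the median log2 ratio over the 9 members was -0.75 and -0.35 in SF3B1 K700E and -0.47 and -0.73 in WT. The libraries of the genotypes interleaved (exact permutation p 1.00, 2-sided). MTOR had -1.06 and -1.12 in SF3B1 K700E and -1.04 and -0.76 in WT, with both SF3B1 K700E values below. SMG1 was the member nearest to level, at 0.03 and 0.13 in SF3B1 K700E and 0.37 and -0.03 in WT. These are ratios of uniquely mapped reads, and several 5′ introns of SMG1 held mostly multiply mapped reads (97.6% at intron 11), unlike its 3′ introns. The SMG1 ratio is therefore not comparable with those of the other members. With 3 equal parts of the annotated gene span, the choice made first, the median was -0.78 and -0.84 in SF3B1 K700E and -0.59 and -0.74 in WT, a difference of -0.15 (exact permutation p 0.33, the smallest that 2 libraries against 2 can give). TTI2 had 0 reads in the 3′ part of its span in any library. By intron number the difference was 0.046 and with 2 equal parts of the span 0.022, so its sign depended on where the parts were drawn. Genes of at least 20 kb gave 0.78 and 0.93 in SF3B1 K700E and 0.82 and 0.75 in WT by span.

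SMG1 has near-identical partial copies elsewhere in the genome, and its reads have to be read with that in mind. Multiply mapped reads made up 37.7% of all reads at its reference introns, and between 0 and 2.16% in every other member. In 13 introns, from intron 2 to intron 27, they were more than 50%, reaching 97.6% at intron 11, whereas 41 introns held under 5%. At the introns under 5% the unique level was 15.97 and 13.4 CPM per intron in SF3B1 K700E and 13.03 and 14.9 CPM per intron in WT, which overlapped like the gene total. Counting multiply mapped reads too gave SMG1 a log2 change of 0.10 (edgeR adjusted p 0.951).

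**Figure D3:**
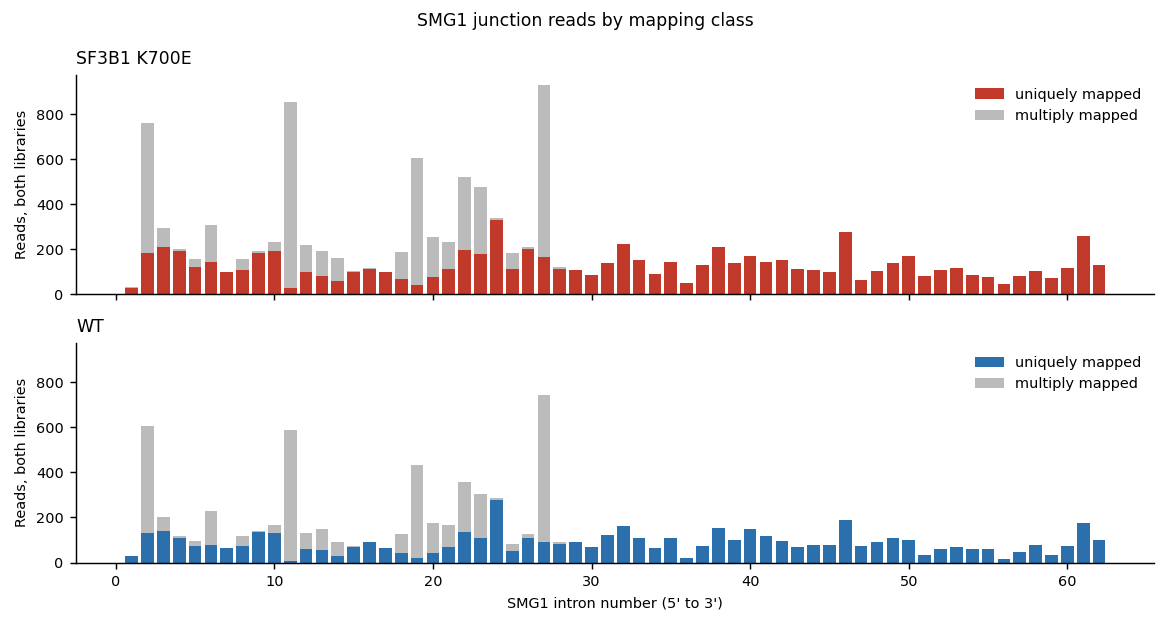
Junction reads at the 62 introns of SMG1, 5′ to 3′, summed over both libraries of SF3B1 K700E (top) and of WT (bottom); coloured bars are uniquely mapped and grey bars multiply mapped reads. Grey bars stand high between intron 2 and intron 27 in both genotypes and are nearly absent after it.

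Most spliced reads of the members followed the reference transcripts. The share at reference introns was 97.5% and 97.6% in SF3B1 K700E and 97.6% and 97.8% in WT. The members had 894 junctions with unique reads, of which 460 were annotated and 434 were not. Of the unannotated ones 401 had under 10 reads over the 4 libraries and 223 had 1. Reads at unannotated junctions made up 1.86% and 1.86% of member junction reads in SF3B1 K700E and 1.82% and 1.56% in WT, a difference of 0.16 percentage points (exact permutation p 0.33). It was 0.29 without replicate 1 of WT and 0.034 without replicate 2 of WT. Over all genes the share was 4.84% and 4.51% in SF3B1 K700E and 4.37% and 4.33% in WT.

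TTI1 had the highest share among the members in all 4 libraries, with 13 of 86 reads (15.1%) and 14 of 58 reads (24.1%) in SF3B1 K700E, and 5 of 53 (9.43%) and 3 of 71 (4.23%) in WT. Both SF3B1 K700E values were above both WT values (exact permutation p 0.33), and 16 of the 27 SF3B1 K700E reads came from the single acceptor described next. TELO2 had 4.502% and 4.45% in SF3B1 K700E and 3.93% and 2.68% in WT. PRKDC, ATM, ATR, MTOR, SMG1 and TRRAP lay between 0.863% and 3.55% in every library. TTI2 had 0 unannotated reads of 75 and 68 in SF3B1 K700E, which allows shares of up to 4.00% and 4.41%, against 2 of 41 and 0 of 48 in WT, the 0 of 48 allowing up to 6.25%.

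In both SF3B1 K700E libraries most of the few reads at TTI1 intron 3 used an unannotated acceptor 17 nt upstream of the annotated one. The intron runs from 38002777 to 38006196 on chromosome 20, minus strand, and the upstream junction from 38002794 to 38006196; both join the end of exon 3 shown above to the region of exon 4, and the longer form would add 17 nt to coding sequence and shift its frame. The upstream acceptor took 9 of 12 reads (75%, 95% Wilson interval 46.8 to 91.1%) and 7 of 13 (53.8%, 29.1 to 76.8%) in SF3B1 K700E, and 0 of 5 (0%, 0 to 43.4%) and 1 of 9 (11.1%, 1.99 to 43.5%) in WT. Both SF3B1 K700E shares were above both WT shares. The 0 of 5 allows a share of up to 60% by the limit of 3 counts, and intervals and limits cover counting error only.

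The mean share was 64.4% ± 14.96 in SF3B1 K700E and 5.56% ± 7.86 in WT (SD, n = 2 each), a difference of 58.9 percentage points that ran from 48.3 to 69.4 on leaving out each library (exact permutation p 0.33, the smallest possible). In the fit over all junctions the log2 change against the other reads of that donor was 2.93 (edgeR unadjusted p 0.0161, adjusted p 1.00), so the difference did not pass. Without replicate 2 of WT, which held the only WT read, the fitted value was 5.06. The longest overhangs of its reads were 72 and 70 bases in SF3B1 K700E and 48 bases in the WT library that had a read. The annotated junction of intron 3 had 3 and 6 reads in SF3B1 K700E and 5 and 8 reads in WT. Intron 4, next to it, had 16 and 12 reads in SF3B1 K700E and 9 and 10 reads in WT.

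The same kind of acceptor, unannotated and 10 to 30 nt upstream of an annotated one, was then counted over all members. There were 21 such sites in 7 of the 9 genes, with 62 reads in SF3B1 K700E and 9 in WT. They made up 0.126% and 0.114% of member junction reads in SF3B1 K700E and 0.0258% and 0.0273% in WT, with no overlap (ratio of means 4.51, exact permutation p 0.33). Without the TTI1 site 46 reads in SF3B1 K700E and 8 in WT remained, at 0.0902% and 0.0873% in SF3B1 K700E and 0.0258% and 0.0218% in WT (ratio of means 3.73). Over all genes the share was 0.120% and 0.100% in SF3B1 K700E and 0.0425% and 0.0481% in WT (ratio of means 2.43), a pattern known from earlier results of these libraries and so no independent support. Whether the ratio of the members differed from that of all genes was not tested.

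In the mirrored window 10 to 30 nt downstream the members had 18 sites with 22 reads in SF3B1 K700E and 15 in WT, or 0.0510% and 0.0342% in SF3B1 K700E and 0.0451% and 0.0437% in WT, which overlapped (ratio of means 0.960, exact permutation p 1.00). Over all genes the downstream share was 0.0460% and 0.0434% in SF3B1 K700E and 0.0356% and 0.0368% in WT, with no overlap (ratio of means 1.24, exact permutation p 0.33). The upstream sites other than that of TTI1 were thin. PRKDC had the only other one with at least 10 reads, an acceptor 17 nt upstream in intron 71 with 3 and 5 reads in SF3B1 K700E and 2 and 1 reads in WT, or 3.25% ± 0.12 and 2.06% ± 0.71 of the reads of its donor (SD, n = 2 each; log2 change 0.57, edgeR adjusted p 1.00). MTOR had 6 of the sites, among them one 24 nt upstream in intron 42 with 3 and 2 reads in SF3B1 K700E and 0 and 0 in WT. ATM had 4 of them, and ATR and SMG1 had 1 each. Of the 21 sites 10 had a single read.

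**Figure D4:**
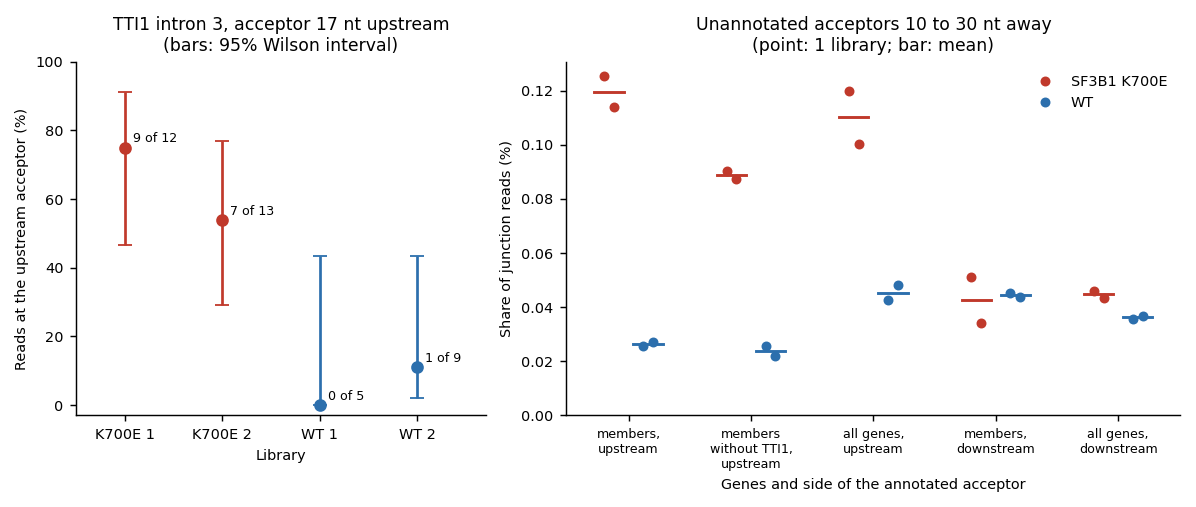
Left, share of reads at the acceptor 17 nt upstream in TTI1 intron 3 per library with 95% Wilson intervals and read counts; right, share of junction reads at unannotated acceptors 10 to 30 nt upstream or downstream of annotated ones, with points for libraries and bars for means, SF3B1 K700E left of WT. Both SF3B1 K700E points lie above both WT points in each upstream group and for all genes downstream, while the downstream points of the members overlap.

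At most other alternative junctions of the members the genotypes overlapped. With at least 10 reads there were 47 alternative junctions in 8 of the genes, 33 of them unannotated. They comprised 15 exon skips, 12 upstream acceptors, 12 donors inside introns, 3 donors inside exons, 2 acceptors inside exons, and 3 junctions with neither end in the reference transcript. Of the skips 10 would shift the reading frame and 5 would keep it. In 9 of the 47 the share was higher in both SF3B1 K700E libraries, in 6 it was lower and in 32 the groups overlapped. Over all acceptors tested 19.0% were higher in this sense and 18.8% lower, and over all donors 18.4% and 18.5%. The 3 junctions with neither end in the reference were the only ones of their donor, so their share was 100% in every library and could only overlap.

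Tested as alternative acceptors with the whole table, 58 member junctions in 8 genes gave 0 calls (lowest edgeR adjusted p 0.816), and limma voom also gave 0. Over all acceptors tested 0.133% were called higher and 0.00428% lower. An unadjusted p under 0.05 was reached by 3 of the 58, against 3.17% of all. The share was higher in both SF3B1 K700E libraries for 13 and lower for 13, against 19.0% and 18.8% of all acceptors. Tested as alternative donors, 58 member junctions in 6 genes gave 0 calls (lowest edgeR adjusted p 1.00), and limma voom gave 0, against 0.00435% of all called in each direction. At an unadjusted p under 0.05 there were 2, against 2.18% of all, and the share was higher for 8 and lower for 7, against 18.4% and 18.5% of all. These counts lie near those of all genes.

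**Figure D5:**
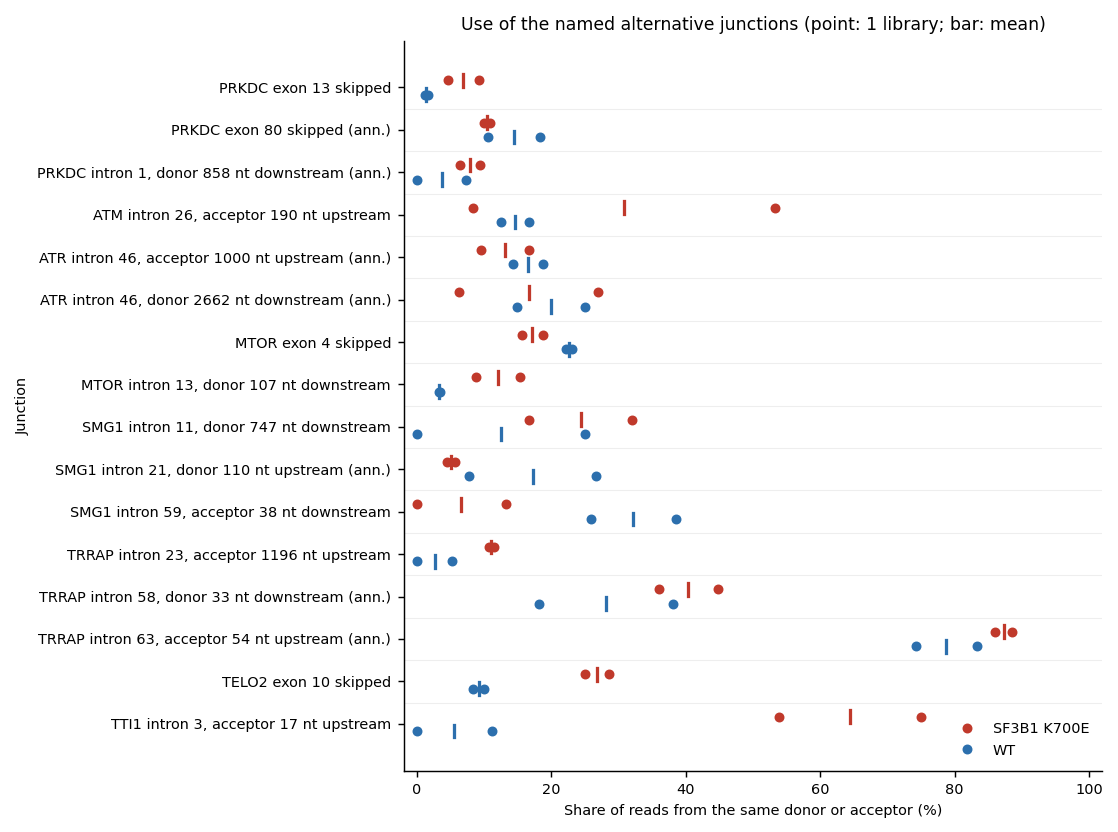
Share of reads at each of 16 named alternative junctions, in percent of reads from the same donor or to the same acceptor; points are libraries, bars are means, SF3B1 K700E drawn above WT, and (ann.) marks annotated junctions. TTI1 shows the widest gap, with means of 64.4% and 5.56% (or 0 of 6 in place of 0 of 5 reads for WT replicate 1, since all reads of the donor are counted here), and the groups are apart at 9 of the 16, the others being PRKDC exon 13, TELO2 exon 10, the MTOR intron 13 donor, TRRAP introns 23 and 63 (all higher), MTOR exon 4, and SMG1 introns 21 and 59 (all lower). Junctions were taken by the largest share difference in each gene, which favours groups that lie apart. Over all acceptors tested 19.0% were higher in both SF3B1 K700E libraries and 18.8% lower.

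Among the DNA damage kinases, PRKDC exon 13 (169 nt, a frameshift when lost) was skipped by 15 and 6 reads in SF3B1 K700E and by 1 and 2 reads in WT. That is 9.15% and 4.65% of the reads of the donor in SF3B1 K700E and 1.16% and 1.6% in WT, with no overlap. The skipping junction runs from 47935059 to 47936352, and its log2 change was 2.26 (edgeR unadjusted p 0.0176, adjusted p 1.00). Skipping of PRKDC exon 80, an annotated in-frame event of 93 nt, took 10.4% ± 0.68 of reads in SF3B1 K700E and 14.5% ± 5.45 in WT (SD, n = 2 each), and overlapped. An annotated donor 858 nt into PRKDC intron 1 took 7.84% ± 2.06 in SF3B1 K700E and 3.66% ± 5.17 in WT, also with overlap. An unannotated acceptor 3 nt upstream in intron 55 had the most reads among the in-frame alternatives of this gene, with 25 and 24 reads in SF3B1 K700E and 7 and 17 in WT, or 18.4% ± 2.55 and 16.3% ± 1.99 of reads.

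In ATM an unannotated acceptor 190 nt upstream in intron 26 had 1 of 12 and 8 of 15 reads in SF3B1 K700E and 1 of 6 and 1 of 8 reads in WT. A single SF3B1 K700E library, replicate 2, held most of its reads, and without it the log2 change was -0.61 in place of 1.15 (edgeR adjusted p 1.00 in both). Together with a donor downstream it bounds an exon of 29 nt, whose incoming and outgoing junctions are both unannotated. These bases lie inside an exon of another annotated transcript of ATM. The outgoing junction had 1 and 6 reads in SF3B1 K700E and 1 and 0 in WT. ATR used an annotated exon of 137 nt inside its last intron, 46. The acceptor side took 6 of 36 and 2 of 21 reads in SF3B1 K700E and 6 of 32 and 2 of 14 in WT, or 13.1% ± 5.05 and 16.5% ± 3.16, with overlap. The donor side took 16.6% ± 14.6 in SF3B1 K700E and 19.9% ± 7.20 in WT, with overlap.

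MTOR exon 4, of 233 nt, was skipped in 22 of 141 and 20 of 107 reads in SF3B1 K700E and in 12 of 52 and 14 of 63 in WT. Its shares of 15.6% and 18.7% in SF3B1 K700E were below 23.1% and 22.2% in WT (log2 change -0.42, edgeR adjusted p 1.00). Its loss would shift the frame, and the junction is unannotated. A donor 107 nt into intron 13 went the other way, with 9 of 59 and 5 of 57 reads in SF3B1 K700E and 1 of 30 and 1 of 31 in WT, and no overlap (log2 change 1.79, edgeR adjusted p 1.00). MTOR exon 8, of 109 nt, was skipped by 10 and 16 reads in SF3B1 K700E and by 12 and 13 in WT, or 13.6% and 17.4% of reads on average.

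In SMG1 an unannotated acceptor 38 nt inside exon 60, marked by the capital AG in the sequence above, took 0 of 42 and 5 of 38 reads in SF3B1 K700E and 10 of 26 and 7 of 27 in WT. The shares were 0% (up to 7.14% by the limit of 3 counts) and 13.2% in SF3B1 K700E, both below 38.5% and 25.9% in WT. This junction, from 18815244 to 18815439, had the lowest p among member acceptors, with a log2 change of -2.37 (edgeR unadjusted p 0.00927, adjusted p 0.816; 0.509 to 1.00 over leaving out each library). The log2 change was -1.28 without replicate 1 of SF3B1 K700E, and -6.63 without replicate 2, a fitted value against 0 reads. It lies in the part of SMG1 with few multiply mapped reads and would remove 38 nt and shift the frame. The annotated donor 110 nt before the end of exon 21, at the capital GT above, took 3 of 67 and 3 of 53 reads in SF3B1 K700E and 3 of 39 and 12 of 45 in WT. Those are 4.48% and 5.66% in SF3B1 K700E, below 7.69% and 26.7% in WT (log2 change -1.80, edgeR unadjusted p 0.0360, adjusted p 1.00), and replicate 2 of WT held most of the WT reads. Without that library the log2 change was -0.62. At intron 21 of SMG1 53.7% of reads mapped multiply, and with multiply mapped reads counted the log2 change of this donor was -1.33.

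The donor 747 nt into SMG1 intron 11 took 8 of 25 and 2 of 12 reads in SF3B1 K700E and 0 of 2 and 2 of 8 in WT. These few unique reads lie where 97.6% of reads mapped multiply, and with multiply mapped reads the share difference was 0.84 in place of 11.8 percentage points. SMG1 also held an unannotated exon of 138 nt, a multiple of 3, inside intron 26. Its incoming junction had 4 and 3 reads in SF3B1 K700E and 2 and 2 in WT, and its outgoing one 6 and 8 in SF3B1 K700E and 3 and 6 in WT, or 3.50% ± 1.26 and 3.60% ± 0.68 of incoming reads (SD, n = 2 each). An acceptor 360 nt upstream in intron 31 took 17.1% and 11.5% in SF3B1 K700E and 9.38% and 5.80% in WT, with no overlap (log2 change 0.93, edgeR adjusted p 1.00).

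TRRAP used the long form of exon 64, with the 54 nt shown above, in most reads of both genotypes. Its acceptor took 31 of 35 and 37 of 43 reads in SF3B1 K700E and 20 of 24 and 23 of 31 in WT. The SF3B1 K700E shares of 88.6% and 86.0% were just above the WT shares of 83.3% and 74.2% (log2 change 0.18, edgeR adjusted p 1.00). The longer exon 58, with 33 more nt and in frame, took 17 of 38 and 9 of 25 reads in SF3B1 K700E and 2 of 11 and 8 of 21 in WT, which overlapped (log2 change 0.39, edgeR adjusted p 1.00). The in-frame exon of 54 nt inside intron 31 was entered by 9.67% ± 7.94 of reads in SF3B1 K700E and 7.76% ± 5.20 in WT (SD, n = 2 each), with overlap. An unannotated acceptor 1196 nt upstream in intron 23 had 5 of 47 and 4 of 35 reads in SF3B1 K700E and 1 of 19 and 0 of 16 in WT. Its shares of 10.6% and 11.4% in SF3B1 K700E were above 5.26% and 0% in WT, where 0 of 16 allows up to 18.8% (log2 change 1.71, edgeR adjusted p 1.00). Without replicate 2 of WT the log2 change was 1.01, and without replicate 1 of WT it was 4.09, a fitted value against 0 reads.

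TELO2 skipped exon 10, of 80 nt and shown above, in 6 of 21 and 11 of 44 reads in SF3B1 K700E and in 4 of 40 and 3 of 36 reads in WT. The shares of 28.6% and 25.0% in SF3B1 K700E were above 10.0% and 8.33% in WT, and replicates lay close together in both genotypes. The junction, from 1500700 to 1501662, is unannotated, and its log2 change was 1.43 (edgeR unadjusted p 0.0684, adjusted p 1.00). The share difference of 17.6 percentage points ran from 15.8 to 19.4 on leaving out each library. TTI2 had no alternative junction with at least 10 reads, and at 39 to 75 annotated-junction reads per library low-level alternatives were not detectable.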

How the data were processed

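Nascent RNA on chromatin was measured in 4 libraries, 2 per genotype. The authors deposited junction files whose columns hold counts of uniquely and of multiply mapped reads per splice junction, without normalization, and the longest overhang. Per the deposited run logs, reads were aligned with STAR 2.7.10a in 1 pass to GRCh38.p12, with 353424 junctions of GENCODE release 27 in the index and 1887 of release 22 added. The files hold spliced reads alone, so unspliced RNA was not analysed here.

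Genes came from GENCODE release 29 on the same build, which held 99.7% of annotated junctions seen. Of reads at annotated junctions 3.98% lay over introns of more than 1 gene and were left out of gene totals, and 0.0587% had no gene. The reference transcript of each member was its APPRIS principal transcript, with most reads where several qualified. Gene totals were tested with edgeR 4.0.16 (filterByExpr, TMM, quasi-likelihood test) in R 4.3.3, and junctions of at least 10 reads in clusters sharing a donor or an acceptor with diffSpliceDGE, with Benjamini-Hochberg adjustment over the whole table at 0.05. A log2 change is SF3B1 K700E over WT; for junctions it is relative to the rest of the cluster. The SE of a gene's log2 change is derived from its test statistic. Alternatives used DESeq2 1.42.0, limma 3.58.1 voom, other filters and reads, and leaving out each library. Single values per library were tested by exact permutation of the 6 assignments, 2-sided, with a smallest p of 0.33. Intervals are 95% Wilson intervals; PCR reads carry no molecular identifiers. The end ratio added a pseudocount of 0.5 reads.

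Named were all 9 members, the TTI1 upstream acceptor, and of alternative junctions with at least 10 reads the 3 per gene with the largest share difference; other junctions and the partners from the list of 43 were picked for the text after their values were seen. Frame was judged by length alone, and 1 named junction is not reported here. The members and lists were chosen with earlier results of these data known. Each test was first tested on simulated data. Same-numbered libraries did not deviate together (correlation -0.21), so the replicate numbers were not taken as pairs.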

Additional observations from a re-analysis of the deposited data

How the results depend on the processing

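No alternative tried made a member or a named junction pass: over 251 alternatives of their 26 log2 changes the lowest adjusted p was 0.449 (0.182 with crossed numbers), and 0 reversed except on leaving out a library. Leaving out each library moved the log2 change of ATR from -0.12 to 0.53, of SMG1 from -0.0052 to 0.31, of TELO2 from -0.58 to 0.29 and of TTI1 from -0.93 to 0.080, that of the ATM intron 26 acceptor from -0.61 to 1.79, of the ATR intron 46 donor from -1.51 to 0.53 and of the SMG1 intron 11 donor from -0.29 to 2.54.

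Counts over all genes moved more. Genes called were 36 higher and 65 lower, 63 and 154 with DESeq2, and 0 to 98 and 0 to 227 on leaving out each library, with 0 of each without replicate 2 of SF3B1 K700E (337 and 609 at an unadjusted p under 0.05, edgeR). Acceptors called were 31 higher and 1 lower, 9 and 6 with limma voom, 5 to 11 and 0 to 1 on leaving out each library (0 lower without either SF3B1 K700E library, 184 and 193 unadjusted), and 2 lower with a minimum of 20 or of 5 reads. Donors called were 1 and 1 in edgeR and in limma voom, and 0 and 0 with overhangs of at least 20 (350 and 143 unadjusted), with multiply mapped reads (412 and 186) and on leaving out each library (236 to 488 and 122 to 219). With the replicate number as a block, edgeR called 51 and 85 genes, 19 and 0 acceptors (107 lower unadjusted) and 0 and 0 donors (248 and 90 unadjusted), and it called no member; the shared numbers are no pairing, and crossed numbers, chosen after seeing the data, gave 134 and 326 genes, 35 and 1 acceptors and 1 and 1 donors. The difference in end ratio was -0.15 by span, -0.22 to -0.07 on leaving out each library, 0.022 with 2 equal parts and 0.046 by intron number. The cause of these shifts was not tested. Depth limits TTI1 and TTI2 most, at 44 to 73 and 39 to 75 annotated-junction reads per library.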
